A study of Mus musculus with 2 samples.

Results

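The mouse 14-3-3 family comprises 7 genes: Sfn, which encodes stratifin (the sigma isoform), and its 6 paralogues Ywhab (beta), Ywhae (epsilon), Ywhag (gamma), Ywhah (eta), Ywhaq (theta) and Ywhaz (zeta). All 7 were found by symbol among the 27998 genes listed in both expression matrices. The family was selected on measured values, because the knockout to wild type ratio of Sfn was among the lowest in these data, and the paralogues were added as its relatives. That contrast is therefore given as a description of the members. The material was AB2.2 mouse embryonic stem cells, an established line, differentiated toward mesendoderm for 4 days, with 1 droplet single-cell RNA library (10x Genomics) of wild type cells and 1 of PHD2 knockout cells. PHD2 is the prolyl hydroxylase, encoded by Egln1, that marks hypoxia-inducible factor (HIF) for destruction when oxygen is present. No treatment beyond differentiation is named for either group, and the sources used here give neither the altered part of Egln1 nor the number of knockout clones. With 1 library per group no test was possible, and all differences lack a replicate check.

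14-3-3 proteins work as dimers that bind client proteins at phosphorylated serine or threonine, and by doing so hold clients in the cytoplasm, mask their other surfaces or change their activity. Most isoforms are made in nearly all cells and pair with one another. Stratifin is the exception: it pairs mostly with itself, it is best known from epithelia, its gene is a target of p53, and it can hold the mitotic cyclin and its kinase out of the nucleus after DNA damage.

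Levels are counts of unique molecular identifiers (UMIs) summed over the cells of a group and scaled to 1000000 UMIs of those cells (CPM). Intervals are exact at 95% (Poisson for a level, conditional binomial for a fold) and cover counting error only, not the spread between cells, cultures or clones. After limits on cells, 8515 wild type cells (median 20444 UMIs) and 6927 knockout cells (median 20999 UMIs) were kept. Cells were also grouped by T, the Brachyury gene that marks the primitive streak, after each cell had been thinned at random to 14000 UMIs. Cells without a T UMI (T-none) numbered 7231 in the wild type and 1151 in the knockout, cells with 1 or 2 (T-low) 492 and 1681, and cells with 3 or more (T-high) 19 and 3451. The 19 wild type T-high cells are too few to carry a result. Primitive streak markers summed to 62.4 CPM in wild type T-none cells and to 248.5, 462.5 and 1002 CPM in the T-none, T-low and T-high cells of the knockout, and the stem cell factor Pou5f1 was at 142.7 and 112.7 CPM in the libraries. The T-none cells of the 2 libraries were not alike. Naive pluripotency markers summed to 680 CPM in the wild type and 1412 CPM in the knockout, where Dppa5a alone was at 1256 CPM. Nascent mesoderm markers summed to 9.09 CPM in the wild type and 259.2 CPM in the knockout. T-none refers to the thinned UMIs only. Over their full UMIs these cells had T at 2.08 CPM in the wild type and 24.4 CPM in the knockout. Of the other cell types that could bear on Sfn, 6 surface ectoderm and keratinocyte markers summed to between 1.83 and 3.69 CPM in the T-none and T-low wild type cells and the 3 knockout states, and 5 trophoblast markers to between 10.3 and 22.1 CPM.

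Sfn (ENSMUSG00000047281; mm10 chromosome 4, 133600556 to 133602168, minus strand) and the paralogues have differently composed upstream sequence, which is shown because Sfn was also the member that varied between cells. The RefSeq table of promoters (GRCm38.p6, the assembly behind mm10) held 5 of the 7 members; Ywhab and Ywhaz were not listed. The 250 bases before the start of Sfn (chr4:133602169-133602418, minus strand) and of Ywhah (chr5:33018566-33018815, plus strand) follow, 5′ to 3′, with CpG dinucleotides in capitals. Ywhah stands for the paralogues because its start matched an annotated transcript and its window overlapped no exon.
Sfn: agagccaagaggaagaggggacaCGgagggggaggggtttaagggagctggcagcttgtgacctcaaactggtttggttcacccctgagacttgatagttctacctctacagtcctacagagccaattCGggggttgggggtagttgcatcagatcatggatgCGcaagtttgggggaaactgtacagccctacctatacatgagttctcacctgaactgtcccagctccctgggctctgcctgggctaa
Ywhah: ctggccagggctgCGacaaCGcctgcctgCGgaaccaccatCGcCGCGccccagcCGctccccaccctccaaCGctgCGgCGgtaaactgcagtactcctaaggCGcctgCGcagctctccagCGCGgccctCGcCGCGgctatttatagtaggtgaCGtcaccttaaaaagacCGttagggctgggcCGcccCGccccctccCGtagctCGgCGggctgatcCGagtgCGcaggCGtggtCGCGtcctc
The Sfn window held 3 CpG dinucleotides and 54.4% G or C, and 37.8% of 32851 promoters had as few or fewer CpG (median 6). The Ywhah window held 29 CpG and 68.8% G or C. The windows of Ywhae, Ywhag and Ywhaq, 2 of which overlapped exons and 1 of which had no matching transcript start, held 29, 16 and 24, and 25.4% of all promoters had 16 or more. On either strand the HIF core ACGTG was found in none of the 5 windows (16.6% of all promoters held it), the T-box sequence AGGTGTGA in none (1.12%) and TATAAA only in that of Ywhah (12.4%). A missing match says only that these letters are not in this window.

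Sfn was at 543.7 CPM in wild type cells (540.5 to 546.9) and at 230.1 CPM in knockout cells (227.8 to 232.5). It was 2.36-fold lower in the knockout (2.34 to 2.39), the ratio ranked 32 from the lowest among 8537 genes that reached 5 CPM in at least 1 library. Of the 7 members 1, Sfn, was lower by at least 1.5-fold and 0 were higher, where 2.35% of all genes were lower and 11.7% higher by that much. Among cells with a low share of chromosome 8 UMIs, described further on, Sfn was 3.70-fold lower.

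The broadly expressed paralogues lay close together in the 2 libraries. Ywhae (chromosome 11, 75732869 to 75765845), whose product is linked to neuronal migration, measured 588.1 CPM in the wild type library and 572.6 CPM in that of the knockout, and Ywhag (chromosome 5, 135908409 to 135934616) 90.04 and 85.79 CPM. Ywhaq (chromosome 12, 21390071 to 21417637) was at 256.9 and 258.0 CPM. Ywhab (chromosome 2, 163994960 to 164018588), whose product binds RAF kinases, was at 170.8 and 188.1 CPM, and Ywhah (chromosome 5, 33018816 to 33027966) at 154.1 and 167.2 CPM. Ywhaz (chromosome 15, 36770770 to 36796929), whose product binds many clients in signalling and survival, was at 179.1 and 215.1 CPM, 1.20-fold higher in the knockout (1.18 to 1.22). The median log2 ratio of the 6 paralogues was 0.06 (range -0.07 to 0.26), beside 0.16 over all genes. Under median-of-ratios scaling the all-gene median went to -0.08, that of the paralogues became -0.18, and Ywhab, Ywhah and Ywhaq changed direction (ratios 0.928, 0.915 and 0.847), so no direction is given for them; on that scale the ratio of Ywhaz was 1.01, that of Ywhag 0.803, that of Ywhae 0.821 and that of Sfn 0.357.

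The 6 paralogues summed to 1439 CPM (wild type) and 1487 CPM (knockout), so the family total of 1983 and 1717 CPM differed mainly through Sfn. Sfn gave 27.4% of the family's UMIs in the wild type (27.3 to 27.6, exact binomial) and 13.4% in the knockout (13.3 to 13.5). These shares are of UMIs, with no correction for transcript length or capture, and do not rank the isoforms by amount of protein.

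**Figure D1:**
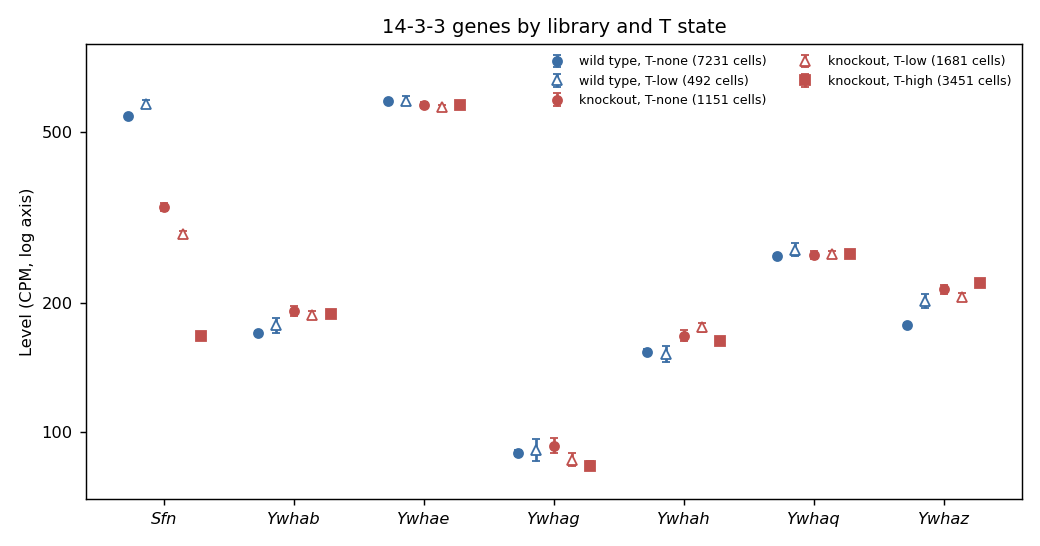
Levels (CPM, log axis) of the 7 genes in the T-none and T-low cells of the wild type library and the 3 T states of the knockout library, with exact 95% counting intervals. Sfn stands between 542.6 and 580.0 CPM in the wild type and steps down from 334.7 to 167.7 CPM in the knockout, while the 5 points of each paralogue span less than 1.5-fold. Levels are not corrected for transcript length and do not rank the genes.

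Within the knockout, Sfn was ordered by T state. It was at 334.7 CPM in T-none cells (327.9 to 341.6), 289.0 CPM in T-low cells and 167.7 CPM in T-high cells (164.9 to 170.5). The 3 intervals did not overlap but cover counting error only. Over thinned cells the variance of Sfn was 12.8, 12.3 and 8.06 times its mean in these states. Whether the order exceeds that spread between cells was not tested. T-high cells were 1.996-fold lower than T-none cells (1.944 to 2.049), where 2.84% of 8672 genes were lower and 2.57% higher by at least 1.5-fold; Sfn was again the 1 of 7 members lower, and 0 were higher. In the wild type the level was 542.6 CPM in T-none cells, 580.0 CPM in T-low cells and 527.5 CPM in the 19 T-high cells (272 UMIs). Wild type T-low cells were 1.07-fold of T-none cells (1.04 to 1.09), against 0.864 (0.840 to 0.888) in the knockout, and the difference between the libraries was not tested. Single steps in the wild type went both ways, with 590.4 CPM in cells with 1 T UMI and 487.0 CPM in cells with 2.

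The levels kept this order over finer steps of T, though the counting intervals at 1 and 2 T UMIs overlapped. Knockout cells with 0, 1 and 2 T UMIs had 334.7, 294.1 and 282.1 CPM of Sfn. Those with 3 or 4, 5 to 9 and 10 or more had 225.4, 166.1 and 102.1 CPM, the last being 3.28-fold lower than cells without a T UMI. At the limit that separates T-low from T-high, cells with 2 T UMIs (715 cells) were at 282.1 CPM and cells with 3 (584 cells) at 227.4 CPM. The paralogues stayed close to even: their ratios of T-high over T-none knockout cells were 0.983 for Ywhab, 1.001 for Ywhae, 0.898 for Ywhag, 0.974 for Ywhah, 1.004 for Ywhaq and 1.03 for Ywhaz. Ywhaz reached 1.11 in cells with 10 or more T UMIs. As a share of family UMIs Sfn stood at 18.2%, 16.3% and 10.1% in the 3 knockout states, while the paralogues summed to 1503, 1484 and 1495 CPM.

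**Figure D2:**
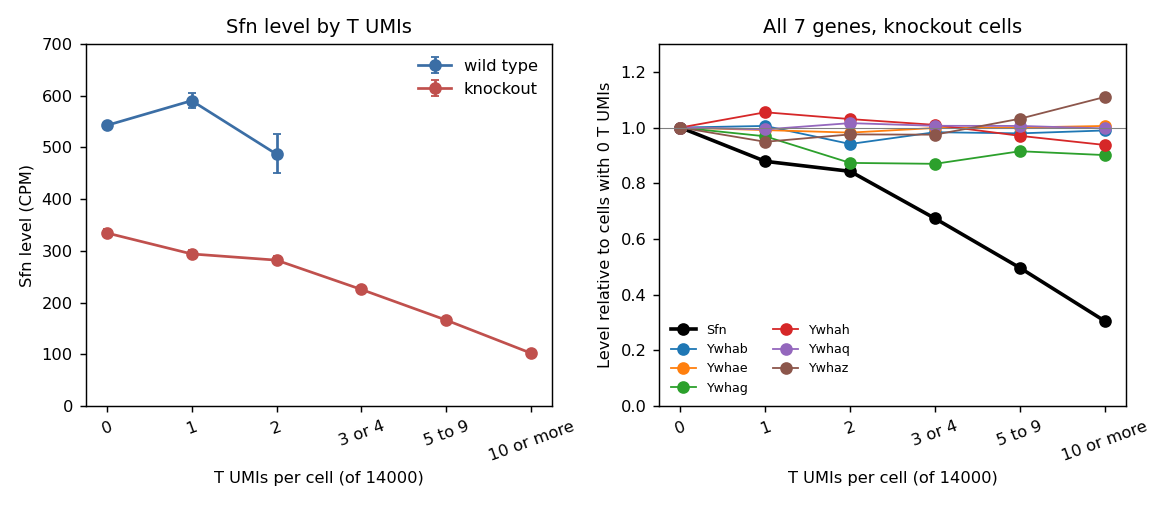
Left, Sfn level (CPM) by the number of T UMIs per cell in both libraries, with exact 95% counting intervals, wild type cells shown up to 2 T UMIs. Right, the level of each of the 7 genes in knockout cells relative to knockout cells without a T UMI, where Sfn ends at 102.1 against 334.7 CPM and the paralogues stay near 1.

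Among T-none cells Sfn was at 542.6 CPM in the wild type and 334.7 CPM in the knockout, 1.62-fold lower (1.59 to 1.66), where 1.80% of 8550 genes were lower and 12.4% higher by at least 1.5-fold. Of the 7 members 1 was lower and 0 were higher. These groups were not matched for T, which over full UMIs was at 2.08 CPM in the wild type and 24.4 CPM in the knockout. Of the 1151 T-none knockout cells 325 had a UMI of Mesp1, the factor of the earliest mesoderm. In those Sfn was at 219.3 CPM, against 377.4 CPM in the 826 others. Without Mesp1-positive cells the difference between the libraries among T-none cells was 1.44-fold (1.41 to 1.47; 543.4 against 377.4 CPM), below the 1.5-fold used for a call. This split was chosen with the values in view. Among T-none cells of low chromosome 8 share the difference was 2.83-fold, and among those of high share 1.34-fold. Sfn also differed by naive marker UMIs, and fell as they rose in the wild type: in T-none, Mesp1-none cells it was at 674.4 CPM with 0 to 2 such UMIs and 318.3 CPM with 30 or more. In like knockout cells it was at 414.7 CPM with 0 to 2, 477.0 CPM with 3 to 7 and 227.2 CPM with 30 or more, so the order did not hold at the low end. Knockout cells were lower in all 5 ranges of naive marker UMIs. The difference ran from 1.15-fold at 3 to 7 UMIs (477.0 against 550.5 CPM) to 1.63-fold at 0 to 2 (414.7 against 674.4 CPM). In knockout T-none cells Dppa5a was at 1256 CPM of the summed 1412 CPM of naive markers. The ranges there follow mostly this gene.

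Sfn was also lower in knockout cells with UMIs of mesoderm and blood factors. Knockout cells with a Mesp1 UMI (2073 cells) were at 151.9 CPM, against 269.0 CPM in the others. Within T-high knockout cells the Mesp1-positive ones were at 121.4 CPM and the Mesp1-none ones at 189.7 CPM, 1.563-fold lower (1.503 to 1.626). Without any Mesp1-positive cell the T-high cells were still 1.99-fold lower than the T-none cells. Knockout cells with UMIs of both Etv2 and Lmo2, factors of blood and endothelium (190 cells), were at 103.2 CPM, against 234.5 CPM in the others. In the wild type the 36 Mesp1-positive cells were at 398.2 CPM and the 31 with Etv2 and Lmo2 at 267.8 CPM. The 26 with Zscan4, a 2-cell-stage gene family, were at 264.4 CPM. Wild type cells outside each group were at 545.7 to 546.1 CPM. With so few cells and the wide spread of Sfn between cells, these wild type levels do not carry a result.

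Sfn was spread unevenly over cells. In the thinned wild type cells the mean was 7.45 UMIs per cell and the median 3, the highest cell had 98, 14.5% of cells had none and 26.9% had 10 or more. In the knockout the mean was 3.02 and the median 1, the highest cell had 60, 41.2% had none and 9.77% had 10 or more. Counts drawn at random at those means would leave 0.0579% and 4.90% of cells without a UMI. The tenth of cells richest in Sfn held 41.3% of its UMIs in the wild type and 58.2% in the knockout. By T state, 34.4%, 37.0% and 45.4% of knockout cells had none. The variance of Sfn over cells was 12.7 times its mean in the wild type and 11.1 times in the knockout. For the paralogues this ratio was 1.09 to 1.40 and 1.11 to 1.36, near the medians of 1.16 and 1.19 over genes with at least 1 UMI per cell, and only 10 of 1611 and 15 of 1709 such genes exceeded Sfn. Background from free RNA was not tested, since no cell type known to lack Sfn was at hand.

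**Figure D3:**
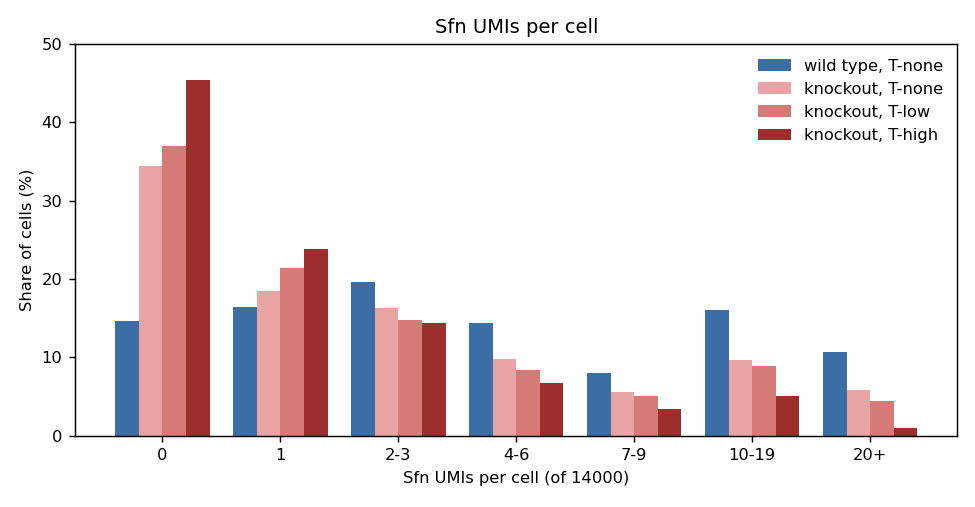
Share of cells (%) by Sfn UMIs per cell after thinning to 14000 UMIs, in wild type T-none cells and the 3 knockout T states, in ranges of unequal width. Cells without a Sfn UMI make up 14.7% of wild type T-none cells and 34.4%, 37.0% and 45.4% of the knockout states, and cells with 20 or more make up 10.7%, 5.82%, 4.40% and 1.04%.

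Cytoskeletal genes were among those that went most with Sfn from cell to cell. Over thinned cells, among 1924 genes at 50 CPM or more in both libraries, the 5 most like Sfn by Pearson r of log2(UMI + 1) were S100a6, a calcium-binding protein (0.56 in the wild type, 0.58 in the knockout), the simple-epithelium keratin Krt8 (0.55, 0.55), the actin-binding genes Tagln (0.60, 0.54) and Tmsb4x (0.56, 0.52) and the tropomyosin Tpm1 (0.51, 0.51). The 5 least like it were the nucleolar chaperone Npm1 (-0.25, -0.30), Set (-0.24, -0.24), the mitochondrial chaperone Hspe1 (-0.27, -0.23), the chromatin protein Hmgb2 (-0.24, -0.21) and prothymosin Ptma (-0.29, -0.20). The cells of a point share a library and a preparation, so these are descriptions; the medians over all 1924 genes were -0.01 and -0.02. The paralogues lay between -0.01 and 0.18, with Ywhah highest (0.18, 0.16). Their variance over cells was 1.09 to 1.40 times the mean, close to counting error alone, which limits how far r can rise. T was at 0.03 in the wild type and -0.19 in the knockout.

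**Figure D4:**
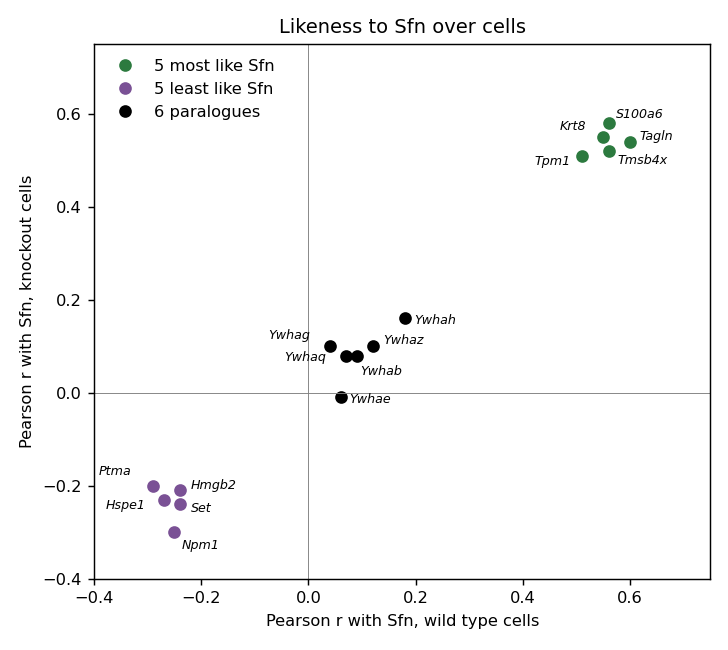
Pearson r with Sfn over cells thinned to 14000 UMIs, wild type (horizontal) against knockout (vertical), for the 5 genes most like Sfn, the 5 least like it and the 6 paralogues. The most like genes lie at 0.51 or above in both libraries and the paralogues between -0.01 and 0.18.

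Not all genes that went with Sfn over cells shared its difference between libraries. Krt8 had 171.8 CPM in the wild type library against 336.6 CPM in the knockout and S100a6 223.1 and 305.8 CPM, both higher, whereas Tagln was at 787.8 and 414.1 CPM and Tpm1 at 583.8 and 418.7 CPM, both lower. Tmsb4x was at 721.5 and 775.1 CPM. Between the T states of the knockout they did go the way of Sfn: Krt8 was at 451.3 CPM in T-none and 268.8 CPM in T-high cells, Tagln at 530.0 and 322.8 CPM, and Tpm1 at 549.3 and 343.3 CPM.

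Cells with 10 or more Sfn UMIs (2085 wild type, 614 knockout) were set beside cells with none (1119 and 2586), groups made by Sfn itself and described without a test. In the wild type 7.47% of all genes were higher and 2.04% lower in the Sfn-high cells by at least 1.5-fold, and in the knockout 10.4% and 3.74%. Of 12 measured epithelial genes 8 were higher in the wild type (median log2 ratio 0.88) and 10 in the knockout (1.63), and 0 were lower. Krt19, a simple-epithelium keratin, was at 9.65 CPM in Sfn-none and 188.3 CPM in Sfn-high wild type cells, and Krt8 at 122.2 and 1087 CPM in those of the knockout. The tight junction gene Cldn4 was at 3.75 and 43.0 CPM in the knockout, while the adhesion gene Epcam was at 289.3 and 291.2 CPM in the wild type. Of 11 contractile genes 10 were higher in the wild type (median 1.22) and 11 in the knockout (2.07); Tagln was at 258.6 and 1584 CPM in the wild type and 151.2 and 1429 CPM in the knockout. Among 15 p53 targets 3 were higher in the wild type and 6 in the knockout, and Perp, Gadd45a and Btg2 were the 3 of the wild type. The desmosomal gene Perp was at 16.3 (Sfn-none) and 51.7 CPM (Sfn-high) in the wild type and 26.9 and 79.6 CPM in the knockout. The growth arrest gene Gadd45a was at 15.3 and 42.3 CPM in the wild type and 10.6 and 33.1 CPM in the knockout. Cdkn1a, the p53 target that inhibits cyclin-dependent kinases, was at 142.7 and 166.1 CPM in the wild type and 295.1 and 338.1 CPM in the knockout. Of the 24 measured members of the 5 client lists 2 passed 1.5-fold in the wild type, both higher, and of 26 in the knockout 4 were higher and 2 lower. Bcl2l11, the gene of the death inducer BIM, was at 12.1 and 20.6 CPM in the wild type and 9.17 and 18.8 CPM in the knockout. Wwtr1, a Hippo pathway co-activator that 14-3-3 proteins hold in the cytoplasm, was at 14.1 and 25.8 CPM in the wild type and 20.6 and 35.6 CPM in the knockout. The deacetylases Hdac5 (8.44 and 13.7 CPM) and Hdac7 (3.04 and 5.81 CPM) were the other 2 higher in the knockout. The mitotic phosphatase Cdc25c (10.49 and 5.81 CPM) and the FOXO factor Foxo4 (7.62 and 4.78 CPM) were the 2 lower there. In the knockout 5 of 6 nascent mesoderm markers were lower in Sfn-high cells (median -2.47), with Mesp1 at 328.4 CPM in Sfn-none and 26.9 CPM in Sfn-high cells, as were 5 of 6 primitive streak markers (-1.15). In the wild type 1 nascent mesoderm marker was measured, Lefty2, and it was higher in Sfn-high cells (0.70), while of 4 streak markers 2 were higher and 1 lower (median 0.12). Markers of other types also moved with this split: summed surface ectoderm and keratinocyte markers were at 0.684 CPM in Sfn-none and 3.38 CPM in Sfn-high cells of the wild type and 1.43 and 5.20 CPM in the knockout. Trophoblast markers summed to 6.88 and 16.7 CPM in the wild type and 13.5 and 23.7 CPM in the knockout, and the part of either type in the result was not tested. Of the paralogues none reached 1.5-fold in either library, and Ywhah came nearest (129.8 and 183.0 CPM in the wild type, 151.4 and 203.6 CPM in the knockout). As a set they were somewhat higher in Sfn-high cells. Their median log2 ratio was 0.21 in the wild type (range 0.07 to 0.49), beside -0.03 over all genes. In the knockout it was 0.26 (range -0.03 to 0.42), beside -0.02.

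Since contractile genes went with Sfn and some differed between the libraries, Sfn was also read by ranges of the summed UMIs of 12 contractile genes per thinned cell. Cytoplasmic actins made up much of this sum. In knockout T-none cells Actb was at 2516 CPM and Actg1 at 2327 CPM of a summed 6213 CPM. Like sums therefore do not mean like levels of the contractile genes that were lower in the knockout. In wild type T-none cells Sfn was at 138.0 CPM with 0 to 49 contractile UMIs, 512.4 CPM with 75 to 99 and 1681 CPM with 150 or more. Knockout T-none cells in the same ranges were at 87.5, 305.6 and 1029 CPM. They were lower in all 5 ranges, by 1.58-fold to 1.97-fold. T-high knockout cells were at 41.7, 240.0 and 884.8 CPM in those ranges. Their distance from T-none knockout cells narrowed from 2.10-fold in the lowest range to 1.61-fold, 1.27-fold, 1.18-fold and 1.16-fold in the ranges above. The median number of contractile UMIs was 74 in wild type T-none cells and 75, 72 and 57 in the knockout states. That of epithelial UMIs was 14, and 14, 13 and 13. Like medians do not mean like sums, since the epithelial genes summed to 1735 CPM in T-none and 1296 CPM in T-high knockout cells.

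**Figure D5:**
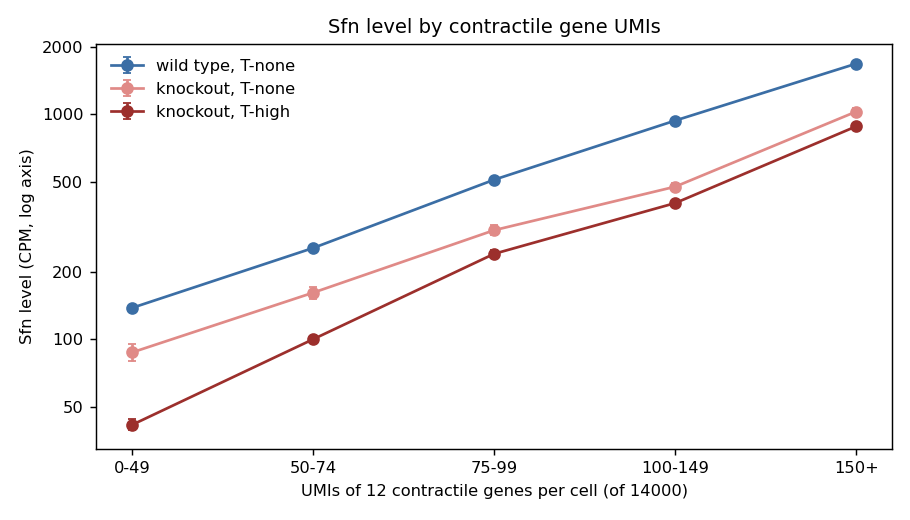
Sfn level (CPM, log axis) by the number of UMIs of 12 contractile genes per cell after thinning, with exact 95% counting intervals, in wild type T-none, knockout T-none and knockout T-high cells. All 3 lines climb with contractile UMIs, the wild type line is highest in every range, and the knockout lines are 2.10-fold apart on the left and 1.16-fold apart on the right.

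Few upstream regulators and clients of 14-3-3 proteins passed 1.5-fold between the libraries. None of 7 measured clients of the cell cycle (median log2 ratio 0.10), 6 of cell death and FOXO factors (0.10), 3 of the RAF list (0.43), 4 mTOR regulators (0.22) or 4 transcription cofactors (0.35) passed 1.5-fold. Cdk1, the mitotic kinase, had 151.9 CPM in the wild type library against 131.9 CPM in the knockout, and Bax, the cell death effector, 730.2 and 629.6 CPM. Wwtr1 was at 19.3 and 24.1 CPM, the RAF kinase gene Araf at 18.8 and 27.5 CPM and the mTOR complex gene Akt1s1 at 50.4 and 48.2 CPM. Of 11 kinases that write 14-3-3 sites 1 was higher, the protein kinase A subunit Prkacb (6.87 and 13.9 CPM), while the most abundant, Mark3, was at 29.7 and 35.4 CPM. Of 4 regulators of Sfn 1 was higher, the ubiquitin ligase Trim25 (8.08 and 14.2 CPM), and Trp53, the gene of p53, was at 175.5 and 173.1 CPM. Among 15 p53 targets 2 were higher and 1 lower (median 0.37), shares near those of all genes (11.7% higher, 2.35% lower), as was the 1 of 11 kinases: Cdkn1a was at 158.0 and 314.8 CPM and Btg2 at 51.7 and 84.6 CPM, and Gadd45a at 26.2 and 14.9 CPM. Sfn, itself a p53 target, was lower in the knockout, as was Gadd45a, while Cdkn1a and Btg2 were higher. Over cells the r of Cdkn1a with Sfn was 0.07 and 0.08. The part of p53 in the level of Sfn was not tested.

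The epithelial and contractile lists went different ways between the libraries. Of 12 epithelial genes the knockout had 3 higher and 2 lower (median 0.11), beside 11.7% and 2.35% of all genes: the desmoplakin gene Dsp was at 13.1 and 46.7 CPM and Krt19 at 71.5 and 182.0 CPM, with Krt8 the other one that was higher, whereas the polarity gene Crb3 was at 60.8 and 35.0 CPM and the claudin Cldn7 at 198.9 and 122.1 CPM. Of 11 contractile genes 5 were lower and 0 higher (median -0.50), with smooth muscle actin Acta2 at 20.1 and 3.50 CPM and the myosin light chain Myl9 at 96.8 and 39.9 CPM, while cytoplasmic actin Actb was at 2218 and 2225 CPM. Tagln, Tpm2 and Ctgf were the other 3 that were lower. Between T-none and T-high knockout cells 0 members of the client lists passed 1.5-fold, beside 2.57% of all genes higher and 2.84% lower. There 3 of 12 epithelial genes (Krt8, Krt18 and Cldn4), 3 of 10 contractile genes (Tagln, Tpm1 and Ctgf) and 1 of 15 p53 targets (Gdf15, at 10.04 and 6.11 CPM) were lower and 0 higher. Krt18 was at 413.6 CPM in T-none and 220.1 CPM in T-high cells, and Ctgf at 27.0 and 12.5 CPM. Of the naive pluripotency genes 5 of 6 were lower (median -1.05), with Klf2 at 37.3 CPM in T-none and 5.39 CPM in T-high cells.

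Stratifin is known for its part in the cell cycle, so cells were ranked by the UMIs of 20 S phase genes and of 20 G2 and M phase genes. None of these genes passed 1.5-fold between the libraries, where 11.7% of all genes were higher and 2.35% lower. Sfn was at 711.0 CPM in the lower and 391.8 CPM in the upper tercile of S phase UMIs in the wild type (1.82-fold) and at 301.0 and 170.3 CPM in the knockout (1.77-fold). Between the terciles of G2 and M phase UMIs it was at 593.1 and 538.2 CPM in the wild type (1.10-fold) and at 286.5 and 186.3 CPM in the knockout (1.54-fold). From the lower to the upper S phase tercile, 94 of 8055 genes were lower by at least 1.5-fold and 203 higher in the wild type. In the knockout 102 of 8596 were lower and 144 higher. For G2 and M phase, 56 of 8056 were lower and 235 higher in the wild type, and 104 of 8691 lower and 342 higher in the knockout. The paralogues lay within ratios of 0.912 to 1.17 in these 4 contrasts.

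The share of UMIs from chromosomes 8 and 11 varied among cells and went with the levels of Sfn and Ywhae, by splits chosen with the values in view. Cells with under 6% of their UMIs from chromosome 8 were 16.1% of those of the wild type library and 45.9% of those of the knockout. Sfn, on chromosome 4, was at 804.7 CPM in low-share and 496.0 CPM in high-share wild type cells, but at 217.7 and 242.2 CPM in those of the knockout. The difference between the libraries was thus 3.70-fold among low-share cells and 2.05-fold among high-share cells, and T-high knockout cells were 1.63-fold and 2.30-fold lower than T-none cells in the 2 classes. Cells with 12% or more of their UMIs from chromosome 11, which carries Ywhae, were 72 in the wild type (0.93%) and 671 in the knockout (10.7%). In those of the knockout Ywhae was at 740.0 CPM, against 552.4 CPM in the others, 1.34-fold (1.31 to 1.36), beside a median ratio of 1.44 over 758 other chromosome 11 genes. Sfn was at 118.5 CPM in these cells and 246.3 CPM in the others. Without them the difference in Sfn between the libraries was 2.23-fold, and the T-high over T-none ratio of the knockout was 0.5, beside 0.501 with them. Whether these shares reflect chromosome copies, or take part in the levels of Sfn, was not tested.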

How the data were processed

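Per the labels' protocol, cells were trypsinized before library preparation. For each library the authors deposited whole-number UMI counts by gene and barcode, with no normalization. Per the file headers, Cell Ranger 4.0.0 wrote them; mm10, Cell Ranger and Seurat are named in the submitters' processing notes. The sources used here give neither sequencing depth nor the transcript end read. The matrices held 9651 wild type barcodes with 226179474 UMIs and 7713 knockout barcodes with 173470962 UMIs, and shared 22 barcodes.

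Cells were kept with at least 1000 genes and at most 10% mitochondrially encoded UMIs. Scrublet (scanpy 1.11.5) called 0 doublets in either library at its automatic threshold, so the highest scores were removed, 0.8% per 1000 barcodes (712 and 456 cells). Thinning to 14000 UMIs left out 773 wild type and 644 knockout cells; levels come from the full UMIs of the thinned cells. Genes were compared where the higher group reached 5 CPM, and counted as higher or lower from 1.5-fold. Log2 ratios carry a pseudocount of 1 CPM, which understates low genes. Intervals were checked on simulated counts with Poisson error only, so the check does not cover the wider spread of Sfn between cells.

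Members and gene lists were chosen with earlier results of these data known. Genes were named from the most abundant member of a list, up to 2 members from each end of its log2 ratio, and the 5 genes most and least like Sfn. Not every gene this rule takes is named, and no S, G2 or M phase gene is. Members counted singly (such as Cdc25c, Foxo4 and Hdac7), the split by Mesp1, Pou5f1, Bcl2l11, and Cdkn1a and Wwtr1 beside Sfn-high cells, were chosen after their values were seen. Coordinates come from GENCODE M21 (mm10), matched for 27645 genes. Python 3.11.15, numpy 2.4.6, scipy 1.17.1 and pandas 2.3.3 were used.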

Additional observations from a re-analysis of the deposited data

Results flagged for a closer look

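Some contrasts pointed opposite ways in the 2 libraries, with intervals that excluded equality for counting error only. The differences between libraries were not tested. These intervals leave out the spread between cells. The variance of Sfn over cells was 12.7 times its mean in the wild type and 11.1 times in the knockout. Whether the Sfn ratios depart from equality beyond that spread was not tested. T-low cells had 1.069 times the Sfn level of T-none cells in the wild type and 0.8635 times in the knockout, and for Ywhaz the ratios were 1.138 and 0.9601. The wild type direction for Sfn did not hold over single steps of T. Wild type cells with 1 T UMI were at 590.4 CPM and those with 2 at 487.0 CPM, against 542.6 CPM in T-none cells. Where the chromosome 8 share was high, cells had 0.6164 times the Sfn level of low-share cells in the wild type and 1.112 times in the knockout.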

How the results depend on the processing

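No paired analysis was possible because each group is 1 library. For 17 results 114 alternatives were run: 83 values stayed the same, 31 moved and 0 called ones changed sign. Folds that stayed the same lay inside the counting interval of the reported value. The paralogue median and the member count have no such interval, and their values that stayed the same were unchanged. The paralogue median changed sign under median-of-ratios size factors and is counted as moved. The Sfn ratio of knockout over wild type (0.423) was 0.414 with no limits on cells, 0.414 with no doublets removed and 0.357 with median-of-ratios size factors; by splits added after the data were seen it was 0.271 and 0.488 in low and high chromosome 8 share, 0.449 without high chromosome 11 share and 0.493 without Mesp1-positive cells. The T-high over T-none ratio (0.501) was 0.481 with thinning to 8000 UMIs, 0.54 with T from full UMIs and 0.425 with T-high at 5 UMIs or more, and 0.612 and 0.436 in low and high chromosome 8 share. Among T-none cells the ratio (0.617) was 0.507 with median-of-ratios size factors, 0.597 with thinning to 8000 UMIs, 0.631 with another seed, 0.66 with T from full UMIs, 0.354 and 0.744 in low and high chromosome 8 share, 0.652 without high chromosome 11 share and 0.695 without Mesp1-positive cells. The paralogue median (0.06) was -0.18 with median-of-ratios size factors, where the share of all genes higher by 1.5-fold was 5.35% in place of 11.7% and lower 6.67% in place of 2.35%. Over all kept cells 1 member passed the limit under each of the 6 alternatives run for that count; among T-none cells without a Mesp1 UMI 0 members were lower by 1.5-fold. The 12 paralogue ratios ranged from 0.803 to 1.21 over 72 alternatives. The causes of the moves were not tested. Wild type T-high levels are limited by the number of cells (19).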
